A study of Mus musculus with 2 samples.

Results

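Malat1 and Neat1 are long noncoding RNAs that stay in the nucleus, and their levels were described here in CD8+ T cells of the mouse. They are 2 of the 27998 genes listed for these libraries, found by symbol (Malat1, ENSMUSG00000092341, and Neat1, ENSMUSG00000092274). The pair was chosen by measured values of these same libraries, so every level and ratio below is a description with no test. All 5884 cell barcodes were used, including those with 10% or more of their UMIs (unique molecular identifiers, each standing for 1 captured RNA molecule) on mitochondrially encoded genes.

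Malat1 lies in nuclear speckles, bodies that hold splicing factors. Neat1 is the scaffold of paraspeckles, nuclear bodies that hold RNA-binding proteins such as NONO and SFPQ, and its long isoform is needed to build them. In single-cell work the level of Malat1 is commonly inspected beside the mitochondrial share when the quality of barcodes is judged.

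The cells came from spleens and lymph nodes of OT-I mice aged 8 to 12 weeks, whose T cell receptor transgene recognises the SIINFEKL peptide of ovalbumin. They were activated for 48 h with that peptide in medium containing 100 U/ml interleukin-2. Both groups therefore share the transgene, the peptide and the cytokine. The control library was kept in 11 mM glucose, and the TGR library underwent transient glucose restriction in 1 mM glucose for 20 h. The sample descriptions give 3 days of growth before the exposure instead. How many mice were used, and whether cells were pooled from several, is not given in the sources used here.

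Each condition had 1 library, so no difference between the conditions has a replicate check, and each describes 2 libraries. The control library held 3336 barcodes and 15103830 UMIs (median 3865 per barcode, range 1268 to 17832). The TGR library held 2548 barcodes and 19702050 UMIs (median 6256.5, range 2505 to 36429). No TGR barcode was as shallow as the 480 control barcodes under 2000 UMIs. Of the barcodes, 209 control (6.26%) and 2 TGR ones had a mitochondrial share of 10% or more. The libraries shared 11 barcode sequences. Ribosomal protein genes took 39.8% of all control UMIs and 50.2% of all TGR UMIs. The 8 CD8 T cell markers in the gene list (Cd8a, Cd8b1, Cd3e, Cd3d, Cd3g, Cd2, Lck and Gzmb) gave at least 1 UMI in 99.8% of control barcodes under the 10% limit, in all 209 above it, and in every TGR barcode.

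Both genes lie on the minus strand of chromosome 19 in GRCm38 (mm10), separated by 22035 bases with no gene of the files' list between them. Malat1 occupies chr19:5795690-5802672, and its main transcript is a single exon of 6983 bases. Neat1 occupies chr19:5824708-5845478 and has a short isoform of 3004 bases, annotated with 2 exons, and a single-exon isoform of 20771 bases. The 3′ ends are shown because the assay primes complementary DNA with oligo-dT. The short Neat1 isoform carries a poly(A) tail. Malat1 and the long Neat1 isoform are instead cut by RNase P beside a genome-encoded stretch rich in A, which folds into a triple helix, and the piece cut off Malat1 is a tRNA-like RNA called mascRNA. Sequences below run 5′ to 3′ on the transcript strand and come from GENCODE M21, and capitals mark the longest run of A in Malat1 and, at the annotated ends, the AATAAA polyadenylation signal or runs of 4 or more A.
Malat1 around its longest A run, chr19:5795908-5796099: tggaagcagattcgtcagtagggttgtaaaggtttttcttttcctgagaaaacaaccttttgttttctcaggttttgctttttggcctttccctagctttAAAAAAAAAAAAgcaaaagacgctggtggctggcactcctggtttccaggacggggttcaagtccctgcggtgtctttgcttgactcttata
Malat1 annotated end, chr19:5795690-5795749: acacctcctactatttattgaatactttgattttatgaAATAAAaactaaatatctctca
Neat1 short isoform end, chr19:5842307-5842366: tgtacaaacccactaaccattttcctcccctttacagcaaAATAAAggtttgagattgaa
Neat1 long isoform end, chr19:5824708-5824767: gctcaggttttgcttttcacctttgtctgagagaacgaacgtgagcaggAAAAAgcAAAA

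The longest A run of Malat1 is 12 bases (chr19:5795988-5795999) and ends 298 bases before the annotated 3′ end. A run that long is present in the annotated transcripts of 8.23% of the 27645 genes matched by identifier, and of 12.5% of the 6683 of them that reached 10 CPM (counts per 1000000 UMIs) in the control or the TGR cells. The longest run in Neat1 is 7 bases, a length reached by 38.5% of matched genes. The annotated end of the long Neat1 isoform is followed directly by an annotated small RNA, Gm27702 (chr19:5824652-5824707), which is not in the files' gene list. The files count UMIs per gene, so neither the isoform of Neat1 nor the place where a Malat1 molecule was primed can be read from them. How these 3′ ends were captured was not tested.

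Malat1 took a larger part of the RNA in the TGR library. Control held 36229 Malat1 UMIs, or 2399 CPM (95% interval 2374 to 2423), and TGR 113104, or 5741 CPM (5707 to 5774). The ratio of TGR over control was 2.39-fold (2.37 to 2.42), a log2 ratio of 1.26. All intervals given here cover counting error only and say nothing about variation between cultures or animals. Those on levels and ratios also leave out variation between barcodes. Intervals that do not overlap therefore do not by themselves show that sets of barcodes differ. Per barcode, the control library held 0 to 61 Malat1 UMIs with a median of 9, and the TGR library 0 to 263 with a median of 35. As a share of each barcode's own UMIs the median was 2017 CPM for control and 5399 CPM for TGR. The distributions overlapped: 384 of 3336 control barcodes (11.5%) lay above the TGR median, and 94.9% of TGR barcodes lay above the control median.

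Neat1 was far sparser and also higher in the TGR library. Control held 393 Neat1 UMIs, or 26.0 CPM (23.5 to 28.7), and TGR 1755, or 89.1 CPM (85.0 to 93.3). The ratio was 3.42-fold (3.07 to 3.83), a log2 ratio of 1.77. A Neat1 UMI was present in 367 control barcodes (11.0%) and 1058 TGR barcodes (41.5%), with at most 3 UMIs in a control and 10 in a TGR barcode. Deeper barcodes have more chance of a UMI, so every barcode was also thinned to 1500 UMIs, which left out 184 control and 0 TGR barcodes as too shallow. After thinning, 4.19% of control barcodes (exact binomial interval 3.52 to 4.95) and 11.7% of TGR barcodes (10.4 to 13.0) had a Neat1 UMI. No cell type that should lack Neat1 or Malat1 was at hand, so free RNA in the droplets was not measured for them.

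Among the 6690 genes that reached 10 CPM in at least 1 of the libraries (scored genes), 206 were at least 2-fold higher in TGR with an interval that excluded equal levels, which is 3.08% of the scored genes. Both Malat1 and Neat1 were among them, at ranks 116 and 39 by ratio from the highest. They were chosen for being high, so nothing is read from that count. In the other direction 539 genes were at least 2-fold lower, and the median log2 ratio of scored genes was -0.18. The split depended on the scaling: with totals that leave out ribosomal protein and mitochondrial genes, 384 genes were higher and 230 lower, and the median of the scored genes moved up by 0.27 to 0.09. On those totals Malat1 stood at 4214 CPM (control) and 12144 CPM (TGR), a log2 ratio of 1.53.

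**Figure D1:**
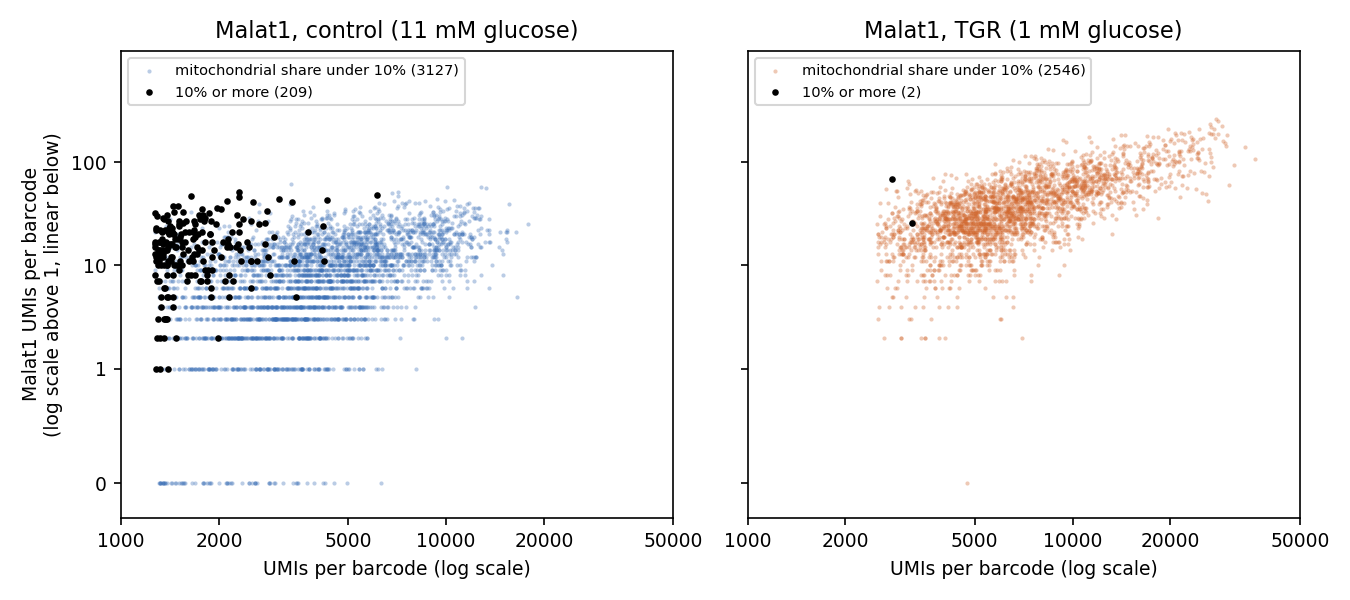
Malat1 UMIs per barcode (vertical axis, logarithmic above 1) against total UMIs per barcode (horizontal axis, logarithmic) in the control library on the left and the TGR library on the right, with 1 point per barcode. Black points are barcodes with a mitochondrial share of 10% or more, which number 209 in control and 2 in TGR. The control black points lie at the shallow end and above most other control barcodes of that depth.

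Barcodes of the 2 libraries differed in depth, and the level of Malat1 went down with depth within each of them. Among control barcodes under the 10% mitochondrial limit it was 3371 CPM in the 319 barcodes with under 2000 UMIs, 2498 CPM at 2000 to under 4000, 2202 CPM at 4000 to under 8000 and 1842 CPM at 8000 to under 16000. In TGR barcodes under the limit it was 6532 CPM at 2000 to under 4000, 5821 CPM at 4000 to under 8000, 5670 CPM at 8000 to under 16000 and 5421 CPM at 16000 or more. From 2000 up to 16000 UMIs the drop was therefore larger, relative to the level, in the control library, and the 4 control intervals did not overlap each other. The number of Malat1 UMIs still rose with depth: the median control barcode held 4, 6, 10 and 17 of them in these 4 bands, and the median TGR barcode 20, 30, 57 and 107.5 in its own 4.

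At matched depth Malat1 remained higher in TGR. With all barcodes included, the ratio was 2.47-fold at 2000 to under 4000 UMIs (2.40 to 2.54), 2.63-fold at 4000 to under 8000 (2.58 to 2.68) and 3.08-fold at 8000 to under 16000 (3.00 to 3.16). The deepest band rests on 3 control barcodes with 51 Malat1 UMIs, where the ratio was 5.39-fold (4.10 to 7.25). No TGR barcode had under 2000 UMIs (0 of 2548, which allows a share of up to 0.118%), so the shallowest band has no ratio. The lowest TGR barcode had 2505 UMIs. Whether shallower ones were filtered out is not given in the sources used here, so that share bounds nothing about the cells themselves.

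Neat1 had no clear slope with depth. In control barcodes under the mitochondrial limit it ran from 34.1 CPM (18 UMIs, interval 20.2 to 53.9) in the shallowest band through 24.9 and 24.6 CPM to 23.3 CPM at 8000 to under 16000 UMIs, and all 4 intervals overlapped. The order of these levels was that of Malat1, and on so few UMIs a slope could be neither shown nor excluded. In TGR, Neat1 was 105 CPM (88.4 to 124) at 2000 to under 4000 UMIs, 80.2 CPM (74.0 to 86.9) at 4000 to under 8000, 90.0 CPM at 8000 to under 16000 and 99.3 CPM (89.5 to 110) at 16000 or more. The lowest TGR level was thus in a middle band, and its interval did not reach those of the shallowest and deepest bands. At matched depth, with all barcodes included, TGR was higher by 4.03-fold (3.11 to 5.30), 3.19-fold (2.68 to 3.82) and 3.85-fold (3.10 to 4.87) in the 3 bands from 2000 to under 16000 UMIs.

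**Figure D2:**
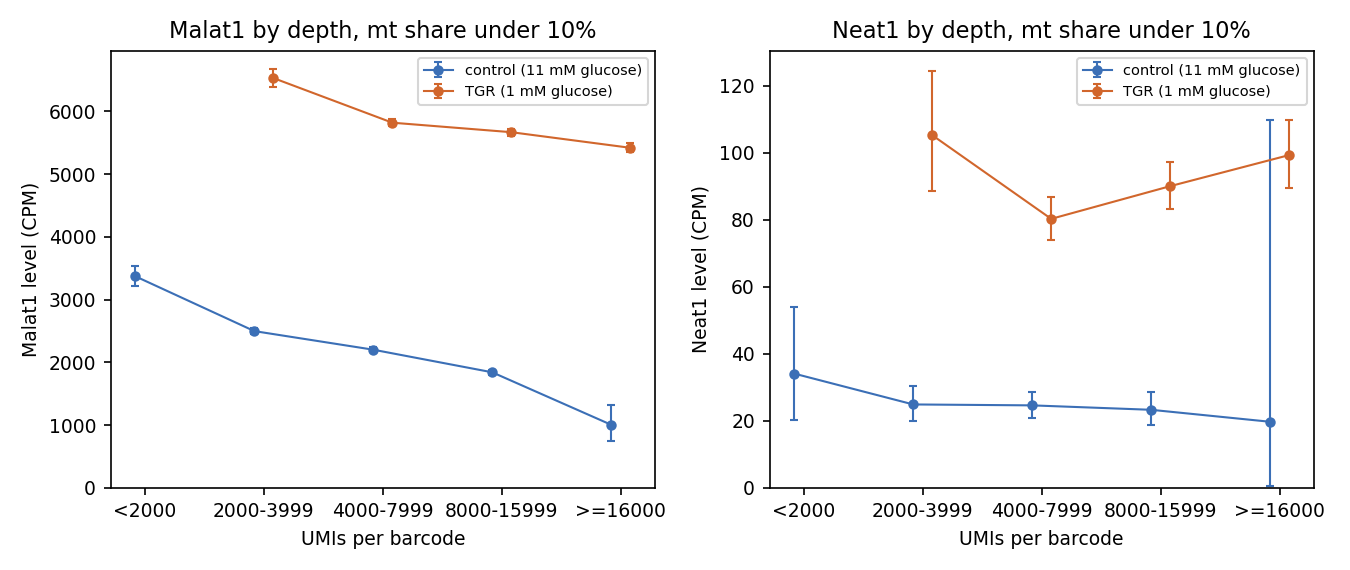
Level of Malat1 (left) and Neat1 (right) in CPM by UMIs per barcode, for barcodes with a mitochondrial share under 10%, summed over each band. Points are control and TGR sums and bars are exact Poisson 95% intervals. Malat1 falls with depth in both libraries, from 3371 to 1842 CPM over the 4 control bands under 16000 UMIs, and the TGR levels lie above control in each shared band.

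Within the control library, barcodes with a high mitochondrial share were the ones in which Malat1 was highest. The 209 barcodes at 10% or more held 3548 Malat1 UMIs, or 9494 CPM (9184 to 9812), against 32681 UMIs, or 2219 CPM (2195 to 2243), in the 3127 barcodes under the limit. That is 4.28-fold higher (4.13 to 4.43), a log2 ratio of 2.10. These barcodes had a median of 1545 UMIs against 4030, yet they held more Malat1 molecules each: a median of 15 (middle 50% of barcodes 10 to 22) against 9 (4 to 15). All 209 had a Malat1 UMI. They carried 2.47% of all control UMIs and 9.79% of the Malat1 UMIs.

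The per-barcode shares of the sets overlapped but were far apart. In barcodes at or above the limit the Malat1 share ran from 716 to 28711 CPM with a median of 9087 CPM, and in those under it from 0 to 20171 CPM with a median of 1880 CPM. Of the 209, 159 (76.1%) lay above the TGR median of 5399 CPM, compared with 225 of the 3127 others (7.20%). Of the 20 control barcodes with the highest Malat1 share, 17 were at or above the limit. In the TGR library 1 of the top 20 was.

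Shallow depth and high mitochondrial share went together, so the contrast was read again within bands of UMIs. Under 2000 UMIs, the 161 control barcodes at or above the limit had 10395 CPM of Malat1 and the 319 below it 3371 CPM, a log2 ratio of 1.62 (1.54 to 1.71). At 2000 to under 4000 UMIs the levels were 8178 CPM in 43 barcodes and 2498 CPM, a log2 ratio of 1.71 (1.61 to 1.81). The gap was thus present at both depths, with overlapping intervals, and smaller at each than over all depths (2.10). Neat1 in the shallower band was 78.1 CPM above the limit (19 UMIs) and 34.1 CPM below it (18 UMIs). Over all depths, leaving the mitochondrial UMIs themselves out of the totals gave a log2 ratio across the limit of 2.33 for Malat1 and 1.93 for Neat1.

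Neat1 differed in the same direction across the limit, on few molecules. It had 30 UMIs in the 209 barcodes, or 80.3 CPM (54.2 to 115), and 363 UMIs in the others, or 24.6 CPM (22.2 to 27.3). The ratio was 3.25-fold (2.17 to 4.73), a log2 ratio of 1.70. Neat1 was found in a similar share of barcodes on both sides, 12.9% (8.69 to 18.2) and 10.9% (9.80 to 12.0). The former barcodes were the shallower. Malat1 was found in 100% and 98.0% of them. Thinned to 1500 UMIs, the Neat1 shares were 11.2% (6.10 to 18.4) and 3.92% (3.26 to 4.67), with 93 and 91 barcodes left out. Those of Malat1 were then 99.1% and 89.6%.

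Malat1 in control was already higher at 5 to 10% mitochondrial share than at 1 to 5%, and was highest at 10 to 20%. Malat1 in control was 3313 CPM in the 18 barcodes under 1% mitochondrial share, 2334 CPM at 1 to 2%, 2078 CPM at 2 to 3%, 2303 CPM at 3 to 5% and 3306 CPM at 5 to 10%. It was 9885 CPM in 165 barcodes at 10 to 20% and 8040 CPM in 44 barcodes at 20 to 40%, and no barcode reached 40%. The counting intervals of these 2 bands did not overlap (9529 to 10250 and 7427 to 8690). Single barcodes spread far wider, from 2218 to 21082 CPM and from 2174 to 19465 CPM between the 5th and 95th percentiles. The lowest summed level of Malat1 lay in the 2 to 3% band, which holds 1648 of the 3336 control barcodes. Just inside and outside the limit, Malat1 was 4369 CPM in 13 barcodes at 8 to 9%, 4804 CPM in 6 at 9 to 10%, 5973 CPM in 6 at 10 to 11% and 6797 CPM in 6 at 11 to 12%. The intervals at 9 to 10% (3941 to 5800) and 10 to 11% (4927 to 7175) overlapped. So few barcodes cannot tell a step at the limit from a gradual rise.

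In TGR, Malat1 went up with mitochondrial share from the lowest band on: 4936 CPM in 48 barcodes under 1%, 5495 CPM at 1 to 2%, 5705 CPM at 2 to 3%, 6026 CPM at 3 to 5% and 8399 CPM in 28 barcodes at 5 to 10%. The 2 TGR barcodes over the limit had 11.7% and 18.6% mitochondrial UMIs. The former held 26 Malat1 UMIs of 3200 and no Neat1 UMI, and the latter 69 Malat1 UMIs of 2782 and 1 Neat1 UMI. With 2 such barcodes, whether a high mitochondrial share goes with high Malat1 to the same degree in TGR could not be compared.

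Neat1 in control did not follow the order of Malat1 at low share, with 16.2 CPM at 1 to 2%, 24.3 CPM at 2 to 3%, 26.5 CPM at 3 to 5%, 40.4 CPM at 5 to 10%, 88.3 CPM (57.7 to 129) at 10 to 20% and 50.6 CPM (4 UMIs, 13.8 to 129) at 20 to 40% mitochondrial share. Both genes thus had their highest control level at 10 to 20%. Control barcodes under 1% had 0 Neat1 UMIs in 18 barcodes, which allows up to 69.0 CPM when 3 counts are taken as the limit of a count of 0; the exact Poisson interval ends at 84.9 CPM. In TGR the order differed: Neat1 was 116 CPM under 1%, 123 CPM at 1 to 2%, 81.0 CPM at 2 to 3%, 91.7 CPM at 3 to 5% and 125 CPM at 5 to 10%. In every mitochondrial band under 10% the summed levels of both genes were higher in TGR than in control. Restricting both libraries to barcodes under 10% gave Malat1 at 2219 and 5738 CPM and Neat1 at 24.6 and 89.1 CPM, with log2 ratios of TGR over control of 1.37 and 1.85.

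**Figure D3:**
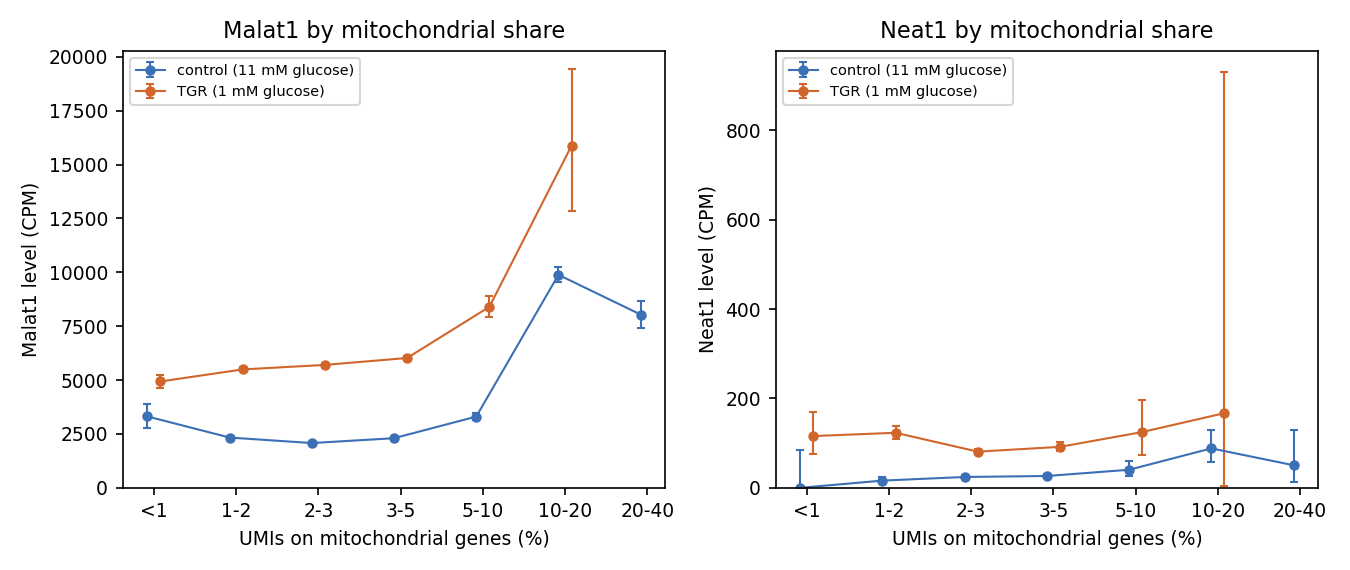
Level of Malat1 (left) and Neat1 (right) in CPM by the share of a barcode's UMIs on mitochondrial genes, summed over all barcodes of each band, with exact Poisson 95% intervals. Malat1 in control is lowest at 2 to 3% (2078 CPM) and reaches 9885 CPM at 10 to 20%. The TGR point at 10 to 20% rests on 2 barcodes.

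Across all genes, the barcodes at or above the limit differed widely from the others. Of 7713 genes with at least 10 CPM on either side, 2407 were at least 2-fold higher in them (31.2%) and 540 lower, with a median log2 ratio of 0.55. The barcodes above the limit held 373702 UMIs, so a gene could pass 10 CPM there on few UMIs, as Tyrobp did on 9. Genes scored through that side only are higher there by selection. They raise the shares of higher genes and the median, here and for the lists below, by an amount that was not measured. Malat1 and Neat1 ranked 643 and 1277 from the highest, so many genes exceeded them. Reading the ratio against that median leaves Malat1 well above it and the interval of Neat1 (log2 1.12 to 2.24) also above it. With totals that leave out ribosomal protein and mitochondrial genes, 1961 genes were higher and 847 lower.

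Gene lists were read at 1.5-fold in this contrast, where 35.9% of scored genes were higher and 11.1% lower. Of 14 scored other long noncoding RNAs, 10 were higher and 1 lower (median log2 ratio 1.57). Xist, the RNA that coats the inactive X chromosome, went from 1050 to 4843 CPM (4.61-fold), and Kcnq1ot1, an RNA that silences imprinted neighbours, from 121 to 621 CPM (5.13-fold). Mir17hg, the host transcript of a microRNA cluster, went from 9.91 to 64.2 CPM (6.44-fold). AW112010, a long noncoding RNA described in immune cells, went from 982 to 1790 CPM (1.82-fold). The lower member was Snhg6, which hosts a small nucleolar RNA in its introns. Jpx, Tsix, Airn, Mir142hg, Gm26740 and Gm26917 completed the higher ones. Tsix overlaps Xist on the opposite strand, and whether the counting used strand is not given in the sources used here.

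Abundant messages of the cytoplasm went the other way. Of 20 of them, 12 were lower and 2 higher, with a median log2 ratio of -1.09. Tmsb4x and Tmsb10, which encode thymosins that bind actin monomers, went from 15396 to 5408 CPM and from 4868 to 1255 CPM. Eef1a1, the elongation factor that brings tRNA to the ribosome, was at 7425 and 5258 CPM, which did not pass 1.5-fold. The 2 higher members were B2m and Cd52, which encode proteins carried to the cell surface; both are named because the count was small, after their values were seen. Ribosomal protein genes had a median share of 14.9% in barcodes at or above the limit, against 39.8% over all control barcodes.

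The 13 mitochondrially encoded messages define the contrast and were all higher (median log2 ratio 2.54), which is no result. The 8 CD8 T cell markers were also higher in 7 cases, with a median log2 ratio of 1.68 and a summed level of 13056 CPM against 3795 CPM. Lists for other cell types moved with them. The summed levels in barcodes above and below the limit were 401 and 91.5 CPM for CD4 T cell markers, 193 and 46.2 CPM for B cell markers, 72.3 and 13.2 CPM for natural killer cell markers and 1346 and 375 CPM for myeloid markers. Sums for plasma cell markers were 278 and 60.3 CPM, for dendritic cell markers 436 and 186 CPM, and for stromal markers 83.0 and 24.4 CPM. The erythroid and platelet lists were at 0 above the limit and at 0.204 and 0 CPM below it. By share of barcodes with a UMI, above and below the limit, B cell markers were at 16.3% and 15.9%, natural killer cell markers at 2.39% and 2.33%, and dendritic cell markers at 54.5% and 53.0%. The shares were 45.0% and 30.3% for CD4 T cell markers, 36.4% and 22.5% for plasma cell markers, 75.1% and 66.1% for myeloid and 12.4% and 10.2% for stromal markers, although barcodes above the limit were shallower. In the myeloid list S100a8 and S100a9 were at 0 on both sides. Cd68 of that list had 1 UMI above the limit and 19 below it, and Fcgr3 had 1 and 5. Itgam, Lyz2 and Csf1r each had 0 above and 1 below. Several sums came mostly from few genes. Above and below the limit, Xbp1 of the plasma list was at 273 and 59.7 CPM. Bst2 of the dendritic list was at 436 and 186 CPM. In the myeloid list Cst3 was at 450 and 115 CPM and Ly6c2 at 891 and 258 CPM. Cd4 had 2 and 19 UMIs, and Flt3 and Itgax had 0 on both sides. The sums thus do not show that cells of these types were present. The part of any such cells in the Malat1 and Neat1 levels was not tested.

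Proteins of the nuclear bodies were read from their messages. Of 30 nuclear speckle proteins, 16 were higher at or above the limit and 2 lower (median log2 ratio 0.64, against 0.55 for all scored genes). Clk4, a kinase that phosphorylates splicing factors, went from 16.4 to 61.5 CPM, and Pnisr, a serine- and arginine-rich protein of speckles, from 82.0 to 260 CPM. Of 31 scored paraspeckle proteins, 9 were higher and 2 lower (median 0.33), with Rbm4b, an RNA-binding protein, at 26.7 and 91.0 CPM and the cold-inducible Rbm3 at 1196 and 599 CPM. Of 21 scored proteins that process or stabilise the 3′ ends of these RNAs, 3 were higher and 3 lower (median 0.11). Pabpn1, the nuclear poly(A)-binding protein, went from 30.5 to 107 CPM, and Nudt21, a cleavage factor subunit, from 230 to 126 CPM. The median of the speckle list was near that of all scored genes, and the other pair of medians lay below it. Totals without ribosomal protein and mitochondrial genes lower every ratio in this contrast by 0.22 on the log2 scale, which turns the median of the end-processing list to -0.12 and leaves the sign of the other list medians given here.

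Between the libraries, the same lists did not follow Malat1 and Neat1. At 1.5-fold, 8.58% of the 6690 scored genes were higher in TGR and 22.9% lower. None of 31 scored paraspeckle protein messages was higher and 11 were lower (median log2 ratio -0.41, against -0.18 for all scored genes). Dazap1, an RNA-binding protein of paraspeckles, went from 140 to 52.2 CPM and Rbm14, a protein needed to assemble them, from 30.3 to 13.0 CPM. The abundant Hnrnpa1 was at 516 and 576 CPM. Sfpq was among the lower ones.

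Nuclear speckle protein messages gave 0 higher and 12 lower of 30 (median -0.49). Srsf7 and Srsf3, splicing factors of the serine- and arginine-rich family, went from 291 to 61.7 CPM and from 536 to 209 CPM. Rbm39 was at 557 and 658 CPM and Srrm2, which forms the core of speckles, at 433 and 315 CPM, neither passing 1.5-fold. Messages for 3′ end processing gave 0 higher and 8 lower of 21 (median -0.45), with Pop1, a protein subunit of RNase P, at 22.9 and 8.17 CPM and Dis3, an exosome nuclease, at 17.9 and 8.12 CPM. Pop5 and Pop7, which are also RNase P subunits, were lower too, with Pop5 at 185 and 99.1 CPM.

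Of 11 scored factors known to act on Neat1 transcription, 1 was higher and none lower, against 8.58% and 22.9% of all scored genes. A count of 1 is near the former share, so nothing is read from it. The list's median log2 ratio was -0.14, and it turned to 0.13 on totals without ribosomal protein and mitochondrial genes. The higher factor was Atf4, the transcription factor of the integrated stress response, at 105 and 297 CPM (2.84-fold). Its part in the Neat1 level was not tested. Hsf1, the heat shock factor, was at 12.2 and 8.27 CPM and Nfkb1 at 114 and 104 CPM.

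Cell type markers also differed between the libraries. The CD8 T cell markers summed to 4024 CPM in control and 2823 CPM in TGR, with 4 of 8 lower at 1.5-fold and none higher. Gzmb, the protease granzyme B of cytotoxic granules, was at 884 and 480 CPM, Cd8a at 388 and 248 CPM, and Cd3g and Cd2 were the others lower. In the CD4 T cell list, which summed to 99.2 and 139 CPM, Zbtb7b was the only scored gene higher at 1.5-fold. It was at 2.45 and 12.3 CPM and passed 10 CPM in TGR only. Ctla4 (53.5 and 64.4 CPM) and Tnfrsf4 (41.1 and 59.6 CPM) made up most of the sum. Cd4 had 21 control and 26 TGR UMIs, Cd40lg 6 and 6, and Foxp3 5 and 19. The sum is therefore not read as a number of CD4 T cells. A marker of that list had a UMI in 30.3% of control and 53.1% of TGR barcodes under the 10% limit, the TGR barcodes being deeper. Sums for the other lists were 49.8 and 51.8 CPM for B cells, 14.6 and 6.60 CPM for natural killer cells, 399 and 240 CPM for myeloid cells, 192 and 142 CPM for dendritic cells, 65.7 and 78.6 CPM for plasma cells and 25.9 and 29.3 CPM for stroma. Erythroid markers were at 0.199 and 0 CPM and platelet markers at 0 and 0.305 CPM. The part of these differences in the Malat1 and Neat1 ratios was not tested.

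Other long noncoding RNAs were mixed between the libraries: 6 of 13 scored were higher in TGR and 2 lower (median 0.51). Snhg12 and Snhg6, both hosts of small nucleolar RNAs, went from 45.3 to 447 CPM (9.88-fold) and from 48.9 to 426 CPM (8.71-fold). Tsix, Gm26740, Pvt1 and Epb41l4aos were the others higher, and Mir17hg and Gm26917 were lower. Xist was at 1144 and 1579 CPM (1.38-fold) and AW112010 at 1002 and 878 CPM, neither passing 1.5-fold. Of the 20 abundant cytoplasmic messages, 8 were lower in TGR and 1, Fau, was higher. The 13 mitochondrially encoded messages gave 0 higher and 4 lower. On totals without ribosomal protein and mitochondrial genes every ratio is higher by 0.27 on the log2 scale, and the medians of the speckle, paraspeckle, end-processing and cytoplasmic lists stay below 0. Control barcodes enter both contrasts, so the lists' values in the pair are given side by side only.

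**Figure D4:**
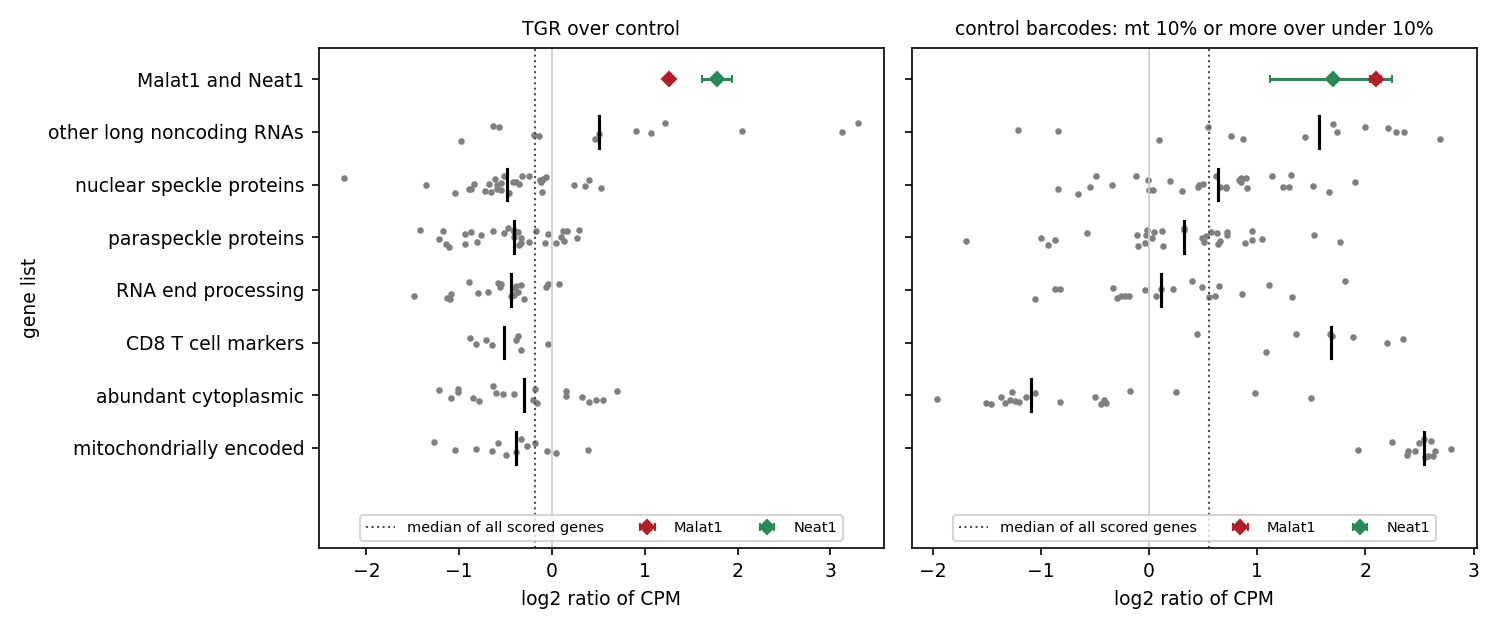
Log2 ratio of CPM (horizontal axis) for Malat1 and Neat1 with 95% counting intervals and for the scored members of 7 gene lists, with TGR over control on the left and, within the control library, barcodes at 10% or more mitochondrial share over those under it on the right. Each grey point is a gene, each black bar a list's median, and the dotted line the median of all scored genes (-0.18 and 0.55). Abundant cytoplasmic messages have a median of -1.09 on the right, and no speckle, paraspeckle or end-processing list member passes 1.5-fold upward on the left.

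The genes named here from beside the pair on chromosome 19 did not share 1 direction. Going from control to TGR, Frmd8 was at 59.1 and 54.3 CPM and Dpf2 at 27.7 and 31.4 CPM. Sssca1 went from 89.6 to 26.3 CPM and Slc25a45 from 9.40 to 21.6 CPM. Frmd8os, which starts 145 bases beyond Neat1 on the other strand, had 4 control and 15 TGR UMIs.

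Cell cycle phases were called on barcodes thinned to 1500 UMIs, and they differed widely between the libraries: 83.6% of control barcodes (2635 of 3152) were called G2/M, against 1127 of 2548 in TGR. The calls come from gene scores and are not read here as cycling. Malat1 in control was 2599 CPM in 132 barcodes called G1, 1527 CPM in 385 called S and 2407 CPM in those called G2/M. In TGR it was 5656, 5426 and 5869 CPM in 1114, 307 and 1127 barcodes. The S call thus had the lowest level in both libraries, by a wider margin in control. The TGR level was higher in each phase, by 2.18-fold in G1, 3.55-fold in S and 2.44-fold in G2/M. Neat1 was 37.6, 14.97 and 26.5 CPM in control and 96.9, 64.1 and 89.4 CPM in TGR in the same order, with 16, 25 and 338 control UMIs behind the values, and its control intervals for G1 and S overlapped. Its ratio was 2.57-fold, 4.23-fold and 3.37-fold.

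**Figure D5:**
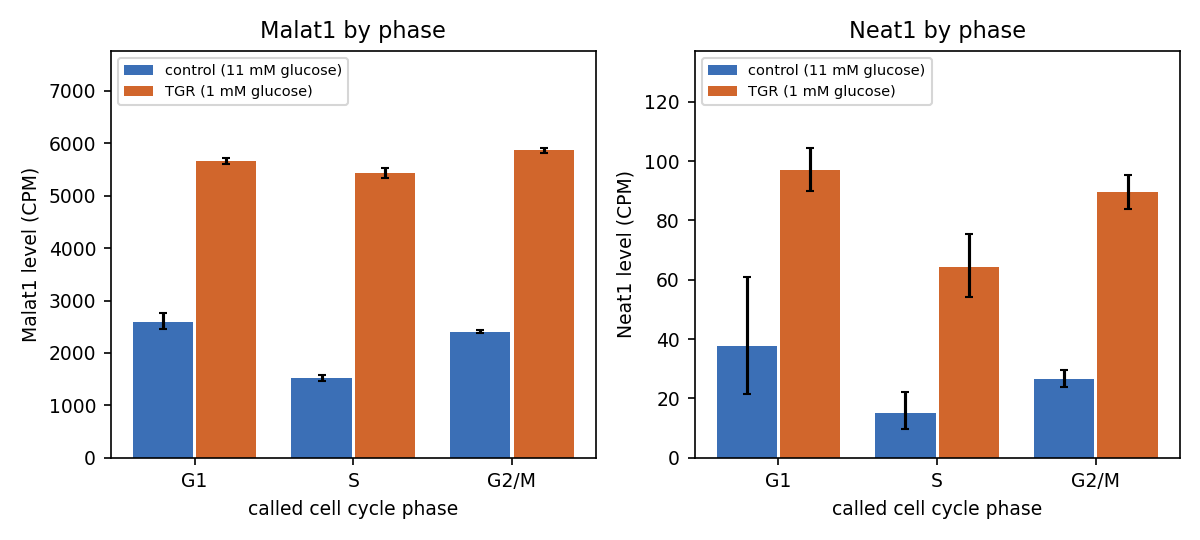
Level of Malat1 (left) and Neat1 (right) in CPM by called cell cycle phase, summed over the barcodes of each phase, with exact Poisson 95% intervals. Both genes are lowest in the barcodes called S in each library, and TGR lies above control in every phase.

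Malat1 varied between cells more than counting alone gives. With barcodes under the 10% limit thinned to 1500 UMIs, its variance divided by its mean (Fano factor, 1 for pure Poisson counting) was 2.69 in control and 2.92 in TGR. The 20 abundant cytoplasmic messages had medians of 1.32 and 1.30, and a range of 1.01 to 7.61 in control and 1.08 to 5.99 in TGR. The highest of them was Actb, which encodes cytoplasmic beta-actin, and Malat1 lay above the next, Tmsb4x (2.30 and 2.45), in both libraries. Neat1 was at 0.994 and 1.10, with 121 and 329 molecules left after thinning. The Fano factor depends on the mean, so these values do not rank genes or libraries by variability. Mean thinned Malat1 counts were 3.48 in control and 8.86 in TGR. Those of Tmsb4x were 24.2 and 11.6, and those of Neat1 0.0399 and 0.129. The standard deviation of Malat1 divided by its mean had the opposite order, 0.879 in control and 0.574 in TGR.

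Barcodes without any Malat1 UMI were 63 in control and 1 in TGR. Medians over the 63 were 1993 UMIs, 824 genes and a ribosomal protein share of 39.7%. None had a mitochondrial share of 10% or more (0 of 63, which allows a share of up to 4.76%). The TGR barcode had 4741 UMIs, of which 0.0211% were mitochondrial, far under the library's median of 2.49%.

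Neat1 was also compared with Malat1 from cell to cell. When barcodes under the limit were ordered by their Malat1 share and split into 3 equal parts, from low to high, Neat1 was 18.8, 24.8 and 31.0 CPM in control and 81.9, 91.4 and 94.0 CPM in TGR. In control the intervals of the lowest (15.1 to 23.0) and highest part (26.0 to 36.7) did not overlap. In TGR those of the lowest (75.2 to 89.2) and highest part (86.5 to 102) did. The Pearson correlation of the pair across barcodes was 0.091 in control (n = 3336) and 0.033 in TGR (n = 2548), on the logarithm of counts per 10000. Values this weak in sparse counts are no finding.

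Among 3821 genes detected in at least 10% of the barcodes of both libraries, the one whose pattern was most like Malat1 was Xist. Its correlation with Malat1 was 0.35 in control and 0.21 in TGR. The next were Ms4a4b (0.20 and 0.18), Ptprc, which encodes CD45 (0.21 and 0.17), H2-D1, a class I histocompatibility gene (0.19 and 0.17), and Calr, the chaperone calreticulin of the endoplasmic reticulum (0.17 and 0.15). Barcodes of a library share its preparation, and each value shares its barcode's depth. Thinned to 1500 UMIs, the Xist values were 0.19 and 0.099. In control barcodes under the 10% limit, Xist was at 0.21, Ms4a4b at 0.093, Ptprc at 0.098, H2-D1 at 0.019 and Calr at 0.044. Each was lower than over all control barcodes. Thinned, with both sides of the limit kept, the control values of the latter 4 were 0.127, 0.137, 0.093 and 0.101. The parts of depth and mitochondrial share in these correlations were not tested. The genes most like Neat1 were Kcnn4 (0.063 in control and 0.11 in TGR), Gm6483, Rbm39, Kmt2a and Celf1, and none of these weak values is a finding.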

How the data were processed

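Per the labels' protocols, single cells were captured with 10x Genomics Chromium v2 kits. The matrices deposited by the authors are raw UMI counts, whole numbers for each gene in each barcode. Cell Ranger 2.2, Seurat 3 and mm10 are named in the submitters' processing notes; the step each tool served, and whether barcodes were filtered, are not given in the sources used here. The lowest number of genes per barcode was 520 in control and 530 in TGR.

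All barcodes were kept, and doublets were not called. UMIs were summed per set of barcodes and scaled to CPM with exact Poisson 95% intervals. Log2 ratios had 0.5 UMI added per set, and their intervals are Clopper-Pearson limits on how the UMIs split; the code was tested on simulated data. Genes with at least 10 CPM in either set were scored, and counted at 2-fold, or 1.5-fold for lists, when the interval excluded a ratio of 1. Phases were called with scanpy 1.11.5. TMM factors came from edgeR 4.0.16 and size factors from DESeq2 1.42.0, used for scaling only. Of 27998 identifiers, 27645 matched GENCODE M21. With 1 library per condition no test was run.

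Malat1 and Neat1, the gene lists and the bands were chosen with earlier results of these data known. Named genes were the pair itself, the 5 genes most correlated with each, and from each list the 2 most changed on the log2 scale and the 2 most abundant by mean CPM; Sfpq, Pop7, Fau, Zbtb7b, the markers, the other noncoding RNAs and the neighbours on chromosome 19 were named after their values were seen. Alternatives were other scalings, filters, mitochondrial limits, weights and depths; correlations under the 10% limit and the mitochondrial contrast under 2000 UMIs were added after seeing the data. Some genes that met these choices are not reported here.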

Additional observations from a re-analysis of the deposited data

How the results depend on the processing

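Under all 10 alternatives for TGR over control and all 8 for the mitochondrial contrast, the estimated ratios of Malat1 and Neat1 stayed above 1. For Neat1 at a limit of 20% this cannot be told from counting error. Its interval above that limit (13.8 to 129 CPM) included the 26.0 CPM of all control barcodes. The Malat1 log2 ratio of TGR over control (1.26) was 1.37 with barcodes under 10% mitochondrial share, 1.32 with TMM factors, 1.31 with DESeq2 size factors, 1.53 with totals without ribosomal protein and mitochondrial genes, 1.03 with barcodes weighted equally, 1.19 thinned to 1500 UMIs, 1.39 at 4000 to under 8000 UMIs, and 1.12, 1.83 and 1.29 in the phases G1, S and G2/M. That of Neat1 (1.77) was 2.04 with the totals without those genes, 1.58 thinned, 1.36 in G1 and 2.08 in S. The Malat1 log2 ratio across the mitochondrial limit (2.10) was 1.40 at a limit of 5%, 1.76 at 20%, 2.33 without mitochondrial genes, 1.87 without ribosomal protein genes too, 2.03 weighted equally, 1.71 at 2000 to under 4000 UMIs, 1.62 under 2000 UMIs (added after seeing the data) and 2.04 thinned, and that of Neat1 (1.70) was 0.96 at 20%, where 4 UMIs were left. The 206 genes higher in TGR became 823 with no filter, 72 at 50 CPM or more and 384 on the totals without ribosomal protein and mitochondrial genes, and the 539 lower became 327 at 50 CPM and 230 on those totals. Across the mitochondrial limit, 2407 higher became 1177 at 50 CPM, and 540 lower became 847 on those totals. Fewer genes are tested at 50 CPM; other causes were not tested. No replicate could be left out, and no paired analysis was possible because each condition had 1 library. Depth limits Neat1, with 30 UMIs behind its level in the 209 high-mitochondrial control barcodes.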
